A study of Mus musculus with 62 samples.

Results

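The mitochondrial genome carries 37 genes, and all 37 are listed in the long-RNA gene tables, among 53975 gene identifiers. They are the rows on the mitochondrial chromosome, and comprise 13 mRNAs, 22 tRNAs and 2 rRNAs. Long RNA was sequenced in 31 libraries: 17 of mouse hippocampal tissue and 14 of HT-22, an immortalised line of hippocampal origin. The mice were App NL-G-F knock-in mice, called APP here (3 each at 3, 6 and 12 months), or C57BL/6J mice, called WT here (2 at 3 months and 3 each at 6 and 12 months). Each mouse gave 1 library from the left and right hippocampus combined. Every HT-22 culture was given a locked nucleic acid oligonucleotide (LNA) for 24 h. It targeted Hsf1, the heat shock transcription factor (150 nM), or was a scramble control, whose dose the labels give as 50 uM. The cultures then had 30 uM of amyloid beta 1-42 (Aβ42), the peptide that accumulates in plaques, or of the reverse 42-1 peptide. With scramble LNA there were 4 libraries for each peptide, and with anti-Hsf1 LNA there were 3. HT-22 is a single line. The labels do not say that its replicates were separate cultures, so p-values there measure the spread between these libraries, which may be technical.

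Mitochondrial DNA is transcribed as long RNAs from promoters on each strand, with tRNAs lying between most of the other genes. Cutting at the tRNA ends releases the rRNAs and mRNAs, so that a tRNA and its neighbours can leave the same precursor at different steady-state levels. The mRNAs encode subunits of the respiratory chain and of ATP synthase, and the rRNAs and tRNAs serve only the mitochondrial ribosome. One transcription direction yields both rRNAs, 12 mRNAs and 14 tRNAs, here called heavy-strand genes (annotated on the + strand). The other yields mt-Nd6 and 8 tRNAs, here called light-strand genes (annotated on the - strand). The labels name no step that marks strand, and the strand setting of the counting is not stated. Strand here is therefore that of the annotation, and antisense RNA cannot be told apart from its partner.

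The genotype results turned on the glycine tRNA mt-Tg and the arginine tRNA mt-Tr, which flank mt-Nd3, a subunit of complex I. They are printed from GRCm38 (RefSeq), 5' to 3', because the genome also holds a copy of this stretch on chromosome 1. In the mitochondrial tRNAs the capitals mark the anticodon as RefSeq annotates it. The added base of the copy lies in a run of A, and is marked at the start of that run.
mt-Tg (MT:9391-9458, + strand): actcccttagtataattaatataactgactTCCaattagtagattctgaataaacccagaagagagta
mt-Tr (MT:9808-9875, + strand): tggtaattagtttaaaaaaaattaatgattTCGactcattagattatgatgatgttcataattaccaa
mt-Tr copy (chr1:24612702-24612770, - strand; capital: the base added in the copy): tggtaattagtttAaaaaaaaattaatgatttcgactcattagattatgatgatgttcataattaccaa
mt-Tg end and mt-Nd3 start (MT:9439-9498, + strand; capital: the base that differs): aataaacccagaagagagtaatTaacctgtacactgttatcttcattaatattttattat
The same in the copy (chr1:24613080-24613139, - strand): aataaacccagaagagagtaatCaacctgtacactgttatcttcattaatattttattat
The copy spans chr1:24611535-24616188 and aligns to MT:6390-11042 over 4653 bases with 2 mismatches. These are A1066T in mt-Co1 and T3C in mt-Nd3, counted from the first base of each gene with the mitochondrial base first. The second mismatch lies 3 bases past the end of mt-Tg, and the 68 bases of mt-Tg itself are the same in both places. The copy also holds 1 added A within mt-Tr. Reads from the mRNAs mt-Co2, mt-Atp8, mt-Atp6, mt-Co3, mt-Nd3 and mt-Nd4l, from parts of mt-Co1 and mt-Nd4, and from the tRNAs mt-Ts1, mt-Td, mt-Tk, mt-Tg and mt-Tr can therefore match 2 places, apart from reads over the bases that differ. The sources used here do not say how such reads were assigned, so the levels of these genes, mt-Tg and mt-Tr included, are uncertain.

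Levels are given in TPM, a transcript abundance corrected for gene length, whose sum is nearly the same in each library. The long RNA was depleted of rRNA before library preparation, so rRNA levels are what depletion left, and its part in the rRNA values was not tested. The relative depth of the libraries, taken as coverage divided by FPKM, lay between 1.42 and 3.04 for the mice and between 0.724 and 2.60 for HT-22. A single noncoding RNA, Gm23935, accounted for 2.45 to 24.3% of hippocampal TPM and 5.37 to 44.3% of HT-22 TPM, and the Rn7s1 and Rn7s2 RNAs of the signal recognition particle for 3.87 to 20.5% and 1.09 to 4.90%. Because of this fixed total, each test is given also after dividing each library by its median of ratios to the other libraries of its system (scaled TPM). That factor was 0.693 to 0.863 in the WT libraries of 6 months and in replicates 1 and 2 of 12 months, and 0.973 to 1.47 in the other mouse libraries. Xist was 74.8 to 201 TPM in all APP and in the 3-month WT mice and at most 0.438 in WT mice of 6 and 12 months. The Y-linked gene Ddx3y was 19.3 to 23.4 TPM in the latter and at most 0.0828 elsewhere. Sex and genotype thus cannot be told apart at 6 and 12 months, and sex and age cannot be told apart between WT ages. All 8 neuronal markers examined had a mean TPM of at least 1 in every hippocampal group. In HT-22 cells only 1 of the 8 did, and their summed level was 1.22 to 7.84 TPM. With Aβ42, Hsf1 was 60.3 to 79.99 TPM with scramble and 27.7 to 43.98 with anti-Hsf1 LNA. With the reverse peptide it was 42.9 to 70.6 and 45.7 to 59.9, so there the libraries labelled anti-Hsf1 overlapped with their controls.

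Mitochondrial RNA was a large part of every library. Together the 37 genes took 23.9 to 42.7% of TPM in hippocampus and 9.63 to 29.97% in HT-22 cells. The 2 rRNAs held most of it, with 18.9 to 36.5% in hippocampus and 6.72 to 19.98% in HT-22 cells. The 13 mRNAs held 4.14 to 7.78% and 2.37 to 8.66%, and the 22 tRNAs 0.568 to 1.21% and 0.480 to 1.33%. With Gm23935, Rn7s1, Rn7s2 and both mitochondrial rRNAs left out of the total, mRNAs held 8.52 to 13.9% of the remainder in hippocampus and 2.83 to 12.3% in HT-22 cells. The highest library exceeded the lowest by a median of 2.08 times over the mRNAs and 3.27 times over the tRNAs in hippocampus, and by 4.18 and 3.39 times in HT-22 cells. The ratio of mRNA to tRNA was 4.15 to 8.14 in hippocampus and 4.32 to 6.53 in HT-22 cells.

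**Figure D1:**
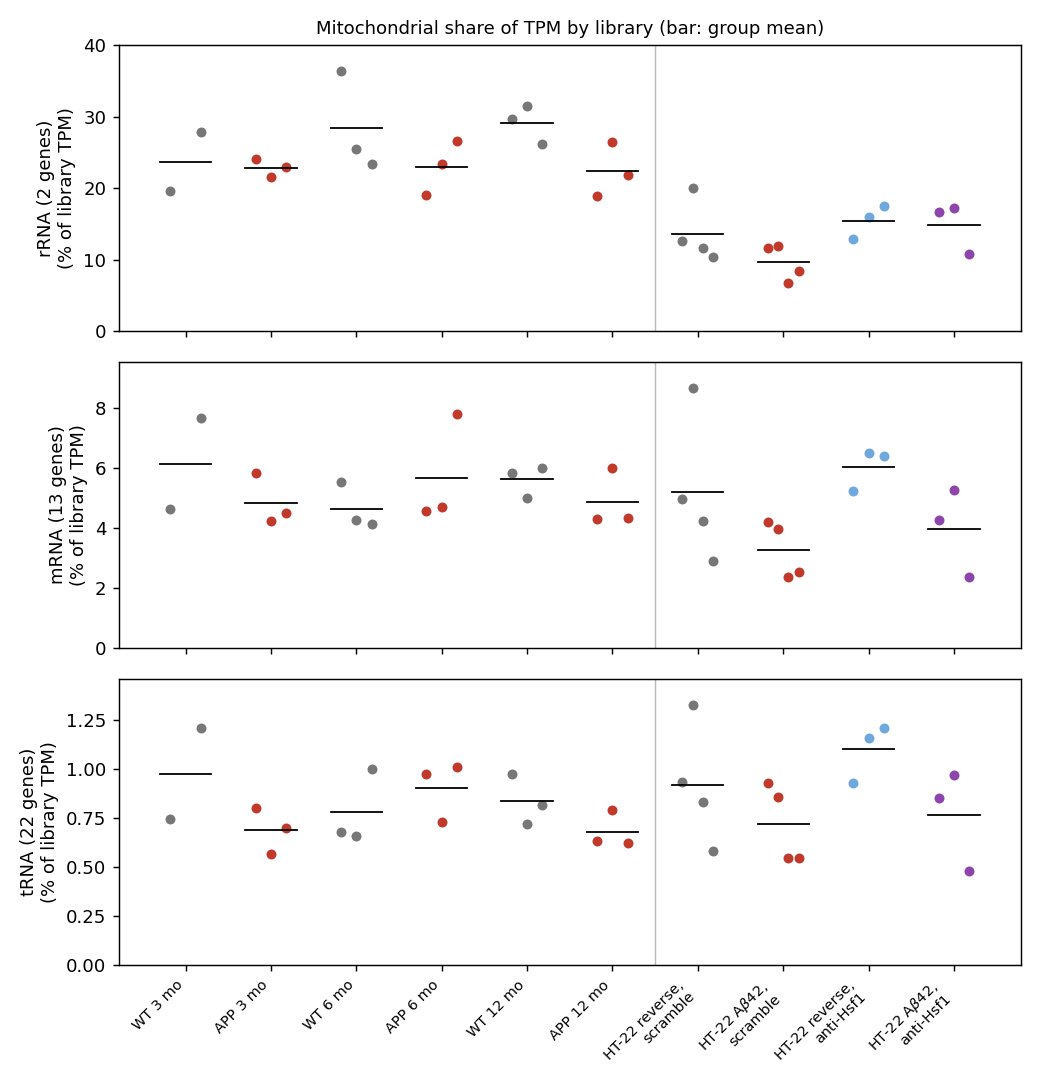
Share of library TPM held by mitochondrial rRNA, mRNA and tRNA (vertical axes, percent) in each library of the 10 groups. Points are libraries and bars are group means. In these shares the genotypes overlap at each age in each class. In each class 1 reverse peptide library with scramble LNA is highest among the HT-22 libraries.

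By group, the mRNA share was 4.61 and 7.65% in WT and 5.81, 4.23 and 4.48% in APP mice at 3 months. It was 5.52, 4.25 and 4.14% in WT and 4.55, 4.70 and 7.78% in APP mice at 6 months. It was 5.84, 5 and 6% in WT and 4.30, 5.98 and 4.32% in APP mice at 12 months. On this scale the mRNA shares of the genotypes overlapped at each age, and so did the tRNA shares. On scaled TPM at 6 months the summed rRNA was 526527, 324555 and 278354 in WT and 154874, 207885 and 181346 in APP mice. The summed tRNA was 9795, 8421 and 11856 in WT and 7913, 6485 and 6868 in APP mice. Neither overlapped, while the summed mRNA did. At 3 and 12 months all these scaled sums overlapped. The WT mice of 6 months have low scaling factors, and the part of these factors was not tested. No test was made of these sums, since the members are scored together. In HT-22 cells with scramble LNA the mRNA share was 4.96, 8.66, 4.22 and 2.91% with the reverse peptide and 4.21, 3.96, 2.37 and 2.53% with Aβ42. With anti-Hsf1 LNA it was 5.23, 6.49 and 6.40% with the reverse peptide and 4.25, 5.27 and 2.37% with Aβ42. Replicate 2 of the reverse peptide with scramble LNA was the highest HT-22 library. Replicates 3 and 4 of Aβ42 with scramble LNA and replicate 3 of Aβ42 with anti-Hsf1 LNA were the lowest.

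The larger rRNA mt-Rnr2 (16S, MT:1094-2675) was above the smaller mt-Rnr1 (12S, MT:70-1024) in each hippocampal library, by 1.17 to 2.51 times. mt-Rnr1 was 64559.5 and 85741 TPM in WT and 79035, 82274 and 77374 in APP mice at 3 months. At 6 months it was 148975, 72482 and 69893 in WT and 55635, 82903 and 92803 in APP mice. At 12 months it was 109619, 145652 and 98805 in WT and 66220.0, 113058 and 76444 in APP mice. WT replicate 1 of 6 months and replicate 2 of 12 months were the highest, and in TPM the genotypes overlapped at each age. mt-Rnr2 was 131208 and 193403 TPM in WT and 162062, 133557 and 152296 in APP mice at 3 months. At 6 months it was 215692, 181995 and 164326 in WT and 135002, 151038 and 173503 in APP mice, with overlap. At 12 months it was 187278, 170150.2 and 163707 in WT and 123175, 151443 and 141451 in APP mice. At 12 months each WT library was above each APP library, but how many of all genes separate in this way was not counted. The log2 change, APP minus WT, was -0.33 (SE 0.25, adjusted p = 0.832) with limma, far above the threshold of 0.05. On scaled TPM the lowest WT library was 149519 and the highest APP library 149381.

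Among the hippocampal mRNAs, mt-Co1, the catalytic subunit of cytochrome c oxidase, was highest in 17 of 17 libraries, at 8987 to 18092 TPM. The complex I subunit mt-Nd1 followed with a mean of 4998 TPM, then mt-Co2 with 4779.8 and mt-Cytb, the mitochondrial subunit of complex III, with 4475. mt-Nd1 was above mt-Co2 in 12 of 17 libraries and mt-Co2 above mt-Cytb in 15, so these neighbours were not in the same order in each library. mt-Nd6, the light-strand mRNA, was 1476 to 2947 TPM and stood above mt-Nd3, the lowest mRNA at 685 to 2072 TPM, in 17 of 17 libraries. Between these lay mt-Co3, mt-Atp6, mt-Atp8, mt-Nd4, mt-Nd4l, mt-Nd5 and mt-Nd2, with means from 2767 TPM for mt-Nd2 to 4379 for mt-Co3. In HT-22 cells mt-Co1 was again highest in 14 of 14 libraries (5117 to 12418 TPM), and mt-Cytb, at 2507 to 10175 TPM, came second in 12 and behind mt-Atp6 in 2. The complex I mRNAs were 2259 to 8787 TPM for mt-Nd1, 1144 to 4779 for mt-Nd4, 393 to 5258 for mt-Nd4l, 1233 to 4535 for mt-Nd5 and 643 to 6511 for mt-Nd2. mt-Co2 was 2292 to 6538 and mt-Co3 1492 to 4514 TPM. The widest range among HT-22 mRNAs was that of mt-Atp8, at 244 to 7499.8 TPM, and the narrowest that of mt-Co1. mt-Nd6 was 151 to 3943 TPM and mt-Nd3 381 to 2334 TPM, and mt-Nd6 stood above mt-Nd3 in 10 of 14 libraries.

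Group levels of the mRNAs (mean TPM ± SD, n = 3 libraries, or 2 in WT mice at 3 months) are given by complex. Of complex I, mt-Nd1 was 6089 ± 2124 in WT and 4636 ± 1136 in APP mice at 3 months, 4377 ± 726 and 5355 ± 1846 at 6 months, and 5337 ± 858 and 4557 ± 951 at 12 months. mt-Nd4 was 3392 ± 1105 in WT and 2799 ± 529.8 in APP mice at 3 months, 2646 ± 466 and 3442 ± 1084 at 6 months, and 3289 ± 129 and 2796 ± 595 at 12 months. mt-Nd5 was 3121 ± 1042 in WT and 2726 ± 418 in APP mice at 3 months, 2519.7 ± 264 and 3293 ± 896 at 6 months, and 3059.8 ± 181 and 2764 ± 517 at 12 months. mt-Nd1 was the highest of the 7 complex I mRNAs in mean level, and the light-strand mt-Nd6 the next to lowest. mt-Nd2 was 3205 ± 1342 in WT and 2579.7 ± 506 in APP mice at 3 months, 2307 ± 638 and 2969 ± 1196 at 6 months, and 3053 ± 102 and 2636 ± 731 at 12 months. mt-Nd4l was 3553 ± 1929 in WT and 2644 ± 389 in APP mice at 3 months, 2469.6 ± 522 and 3283 ± 1347 at 6 months, and 3112 ± 283 and 2851 ± 540.4 at 12 months. mt-Nd6 was 2174 ± 769 in WT and 1815 ± 178 in APP mice at 3 months, 1728 ± 376 and 2127 ± 681 at 6 months, and 2426 ± 188 and 2114 ± 722 at 12 months. mt-Nd3, the lowest, has a base that differs in the nuclear copy, as mt-Co1 does, and was 1539 ± 753 in WT and 897 ± 189.9 in APP mice at 3 months, 1007 ± 126 and 946 ± 182 at 6 months, and 1151 ± 147 and 1108 ± 337 at 12 months. For complex III, mt-Cytb was 5199 ± 2047 in WT and 4109 ± 634 in APP mice at 3 months, 4034 ± 555 and 4578 ± 1283 at 6 months, and 4793 ± 138 and 4378 ± 892 at 12 months. Of complex IV, mt-Co1 was 14231 ± 5263 in WT and 10588 ± 2241 in APP mice at 3 months, 10411 ± 648 and 13648 ± 3876 at 6 months, and 11031 ± 1644 and 9762 ± 931 at 12 months. This gene exceeded each other mRNA in each library. mt-Co2, which carries electrons from cytochrome c into the complex, was 5799 ± 1843 in WT and 4361 ± 578 in APP mice at 3 months, 4509 ± 610.4 and 5219 ± 1393 at 6 months, and 4864 ± 732 and 4267 ± 625 at 12 months. mt-Co3 was 5632 ± 2777 in WT and 3772 ± 916 in APP mice at 3 months, 4572 ± 283 and 4444 ± 819 at 6 months, and 4335 ± 519 and 3934 ± 395 at 12 months. Of ATP synthase, mt-Atp8 was 3651 ± 2197 in WT and 2649 ± 151 in APP mice at 3 months, 2992 ± 1754 and 3045 ± 1201 at 6 months, and 4172 ± 250.3 and 3808 ± 928 at 12 months. mt-Atp6, its proton channel subunit, was 3747 ± 1709 in WT and 4846 ± 814 in APP mice at 3 months, 2815 ± 2476 and 4405 ± 3097 at 6 months, and 5481 ± 968 and 3660.0 ± 2306 at 12 months, with 5 libraries far below the others. None of the 13 was called between genotypes at any age on either scale.

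The tRNAs spanned a wide range although each is needed for the same ribosome. In hippocampus the 3 highest means were mt-Te (glutamate, 1283 TPM), mt-Tn (asparagine, 1163) and mt-Tc (cysteine, 1027), all on the light strand. The 3 lowest were mt-Td (aspartate, 22.04 TPM), mt-Ts2 (serine, 56.3 TPM) and mt-Tv (valine, 77.1 TPM). The other 16 had means between 77.4 and 742 TPM, with heavy-strand mt-Tl1 highest of these after the alanine tRNA mt-Ta. In HT-22 cells mt-Tl1 (leucine, 1557 TPM), mt-Te (glutamate, 1213 TPM) and mt-Tn (asparagine, 723 TPM) were highest by mean and mt-Td (aspartate, 11.5 TPM), mt-Tg (glycine, 43.9 TPM) and mt-Tr (arginine, 52.7 TPM) lowest. By median mt-Ts2 was the lowest tRNA in both, at 1.44 TPM in hippocampus and 3.40 in HT-22 cells, since a few high libraries raise its mean. The 8 light-strand tRNAs held 53.1 to 74.96% of tRNA TPM in hippocampus and 40.3 to 49.04% in HT-22 cells, and the 2 ranges did not overlap. The light-strand mRNA mt-Nd6 was 13.9 to 28.8% of mt-Co1, the highest mRNA, in hippocampus. It was above the heavy-strand mt-Nd3 in 17 of 17 hippocampal libraries. Mature tRNAs are short for a library of fragmented long RNA, and whether these reads come from mature tRNAs or from uncut precursors was not tested.

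At 6 months, mt-Tg and mt-Tr were about an order of magnitude lower in WT than in APP hippocampus. mt-Tg was 12.3, 21.1 and 20 TPM in WT and 246, 216 and 322 in APP mice. mt-Tr was 37.8, 43.3 and 27.7 in WT and 391, 334 and 389 in APP mice. The groups did not overlap for either, and the WT mice of this age also differ from the APP mice in Xist and Ddx3y, as given above. On log2(TPM + 1), mt-Tg was higher in APP by 3.82 (SE 0.71, adjusted p = 0.00134) and mt-Tr by 3.34 (SE 0.44, adjusted p = 0.000408). On scaled TPM, the changes were 3.12 (SE 0.58, adjusted p = 0.0207) and 2.63 (SE 0.38, adjusted p = 0.00382).

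Of the 37 genes, all of which passed the filter on low values, 8 were called at 6 months on TPM, and all 8 were higher in APP. They were tRNAs, and no mRNA or rRNA was called at an adjusted p under 0.05. Among all genes 58% were called, 57.6% as higher, and the median change over all genes was 0.60, against 0.27 over the 37, so a share of 8 in 37 lies below that background. The other 6 were mt-Tl2 (1.03), mt-Tv (1.09), mt-Th (0.91), mt-Tq (0.78), mt-Tl1 (0.73) and mt-Ti (0.64), which carry leucine, valine, histidine, glutamine, leucine and isoleucine. On scaled TPM 3 genes were called beside 1.66% of all genes, namely mt-Tg and mt-Tr as higher (0.42% of all genes) and the proline tRNA mt-Tp as lower (1.24% of all genes). The other 6 were not called on that scale, and of these mt-Ti had the opposite sign there (-0.07). The serine tRNA mt-Ts2 had the most negative change on both scales but was not called, at -4.28 on TPM (adjusted p = 0.119), with 2 of 3 WT libraries far above the rest. mt-Tr was called on scaled TPM without any 1 of the 6 libraries, while mt-Tg and mt-Tp were not called without APP replicate 2, APP replicate 3 or WT replicate 1 (adjusted p from 0.0654 to 0.0845). Over all alternatives to that fit, these included, mt-Tg was called in 11 and not in 3. mt-Tp was called in 8 and not in 6. In TPM at this age, the 8 neuronal markers summed to 1529.6 to 1963 and 2697 to 3802 in WT and APP mice, the 7 astrocyte markers to 811 to 1085 and 1585 to 2024, the 8 oligodendrocyte markers to 675 to 789 and 1148 to 1364, the 8 microglial markers to 110.5 to 113 and 148 to 248 and the 6 endothelial markers to 17.1 to 21.2 and 34.6 to 42.3, with no overlap between genotypes. The 10 choroid plexus markers (998 to 1454 and 126 to 1486) and 5 blood markers (147 to 169 and 101 to 201) overlapped. All these marker sums are on TPM, where 57.6% of all genes were called as higher in APP. They were not scaled or set against that general shift. The part of the markers in the mitochondrial differences was not tested, and in bulk tissue fewer cells of a type cannot be told apart from less RNA per cell.

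mt-Tp lies at MT:15356-15422 on the light strand, next to the control region. Its scaled TPM was 433, 265 and 377 in WT and 159.6, 154 and 163 in APP mice at 6 months, and the groups did not overlap. The log2 change was -1.14 (SE 0.21, adjusted p = 0.0192) on scaled TPM and -0.42 (SE 0.22, adjusted p = 0.105) on TPM, where it was not called. mt-Tp in TPM was 299.8, 208 and 317 in WT and 196, 174 and 239 in APP mice, with overlap. Over the 13 mRNAs the median change was 0.27 on TPM and -0.44 on scaled TPM, with the sign differing between the scales. Over the 22 tRNAs it was 0.32 and -0.39. The rRNAs were not called on scaled TPM, with mt-Rnr2 at -1.01 (SE 0.24, adjusted p = 0.0521) and mt-Rnr1 at -0.99 (SE 0.36, adjusted p = 0.167). Among the alternatives tried, mt-Rnr2 was called with a pseudocount of 0.1, with a filter at a mean TPM of 5, and without WT replicate 3, where it was -1.16 (SE 0.27, adjusted p = 0.0481).

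**Figure D2:**
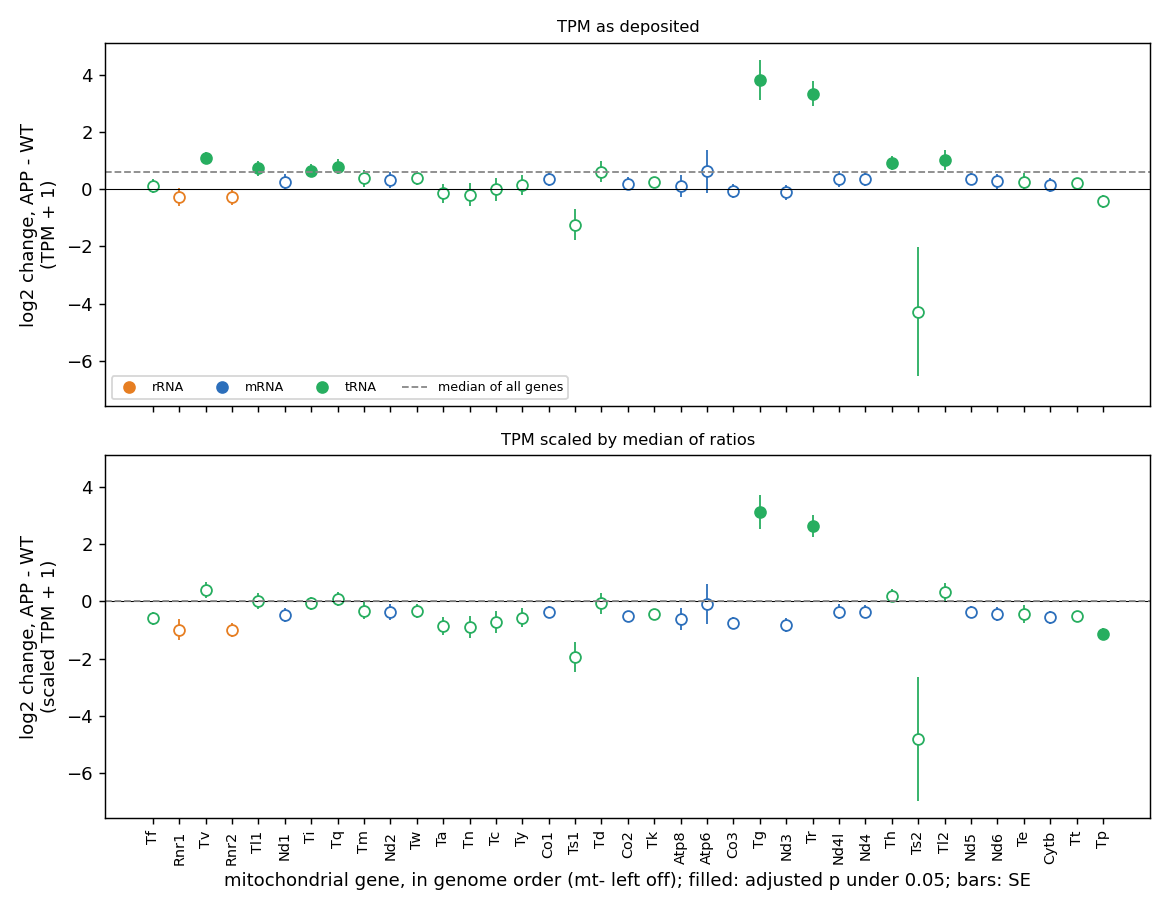
Log2 change APP minus WT at 6 months for the 37 mitochondrial genes in genome order, on TPM (upper panel) and on scaled TPM (lower panel), with standard errors. Filled points have an adjusted p under 0.05, and the dashed line is the median over all genes. mt-Tg and mt-Tr stand above the others on both scales, and most of the other points lie above 0 in the upper panel and below 0 in the lower.

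At 12 months mt-Tg was 25.97, 17.96 and 249 TPM in WT and 174, 212 and 193 in APP mice. mt-Tr was 58.8, 52.2 and 244 in WT and 180.2, 207 and 232 in APP mice. WT replicates 1 and 2 lay below each APP library for both tRNAs, and WT replicate 3 lay above each. None of the 37 genes was called with limma, on TPM beside 0.639% of all genes or on scaled TPM beside 0.443%, and 4 and 7 had an unadjusted p under 0.05. The median change over the 37 was -0.25 on TPM and -0.39 on scaled TPM, beside 0.12 and 0.00 over all genes. The mt-Tg change was 1.94 (SE 0.71, adjusted p = 0.484) and the mt-Tr change 1.16 (SE 0.44, adjusted p = 0.496) on TPM. Without WT replicate 3 both were called, mt-Tg at 3.10 (SE 0.24, adjusted p = 1.68e-06) and mt-Tr at 1.87 (SE 0.25, adjusted p = 0.00102). On scaled TPM without it they were 2.83 (SE 0.19, adjusted p = 1.58e-06) and 1.60 (SE 0.27, adjusted p = 0.0248). This fit is singled out because of the values of that library, and it leaves 2 WT libraries. Its small SEs and p-values follow from that choice, and are not read as a genotype difference at 12 months.

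At 3 months mt-Tg was 241 and 198 TPM in WT and 217, 168 and 168 in APP mice, and the groups overlapped. mt-Tr was 299 and 178 in WT and 308, 184 and 240.3 in APP mice, again with overlap. None of the 37 genes was called with limma on TPM (0.398% of all genes, 3 members with an unadjusted p under 0.05) or on scaled TPM (0.303%, 1). A test of whether the genotype difference varied over the 3 ages called 5 of the 37 genes on TPM, namely mt-Tv, mt-Tq, mt-Tg, mt-Tr and mt-Th, beside 33.1% of all genes. On scaled TPM it called none of the 37, beside 0.437% of all genes, and 5 had an unadjusted p under 0.05. The WT mice of 3 months differ from the older WT mice in Xist and Ddx3y. A genotype difference that varies with age thus cannot be told apart from sex in this test.

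Between WT ages, mt-Tg and mt-Tr were the members called at 6 against 3 months on TPM, both lower, mt-Tg at -3.58 (SE 0.79, adjusted p = 0.00762) and mt-Tr at -2.66 (SE 0.49, adjusted p = 0.00405). Among all genes 34.1% were called, 33.9% as lower. On scaled TPM none of the 37 was called beside 0.185% of all genes, with 7 members at an unadjusted p under 0.05. Without WT replicate 2 of 3 months no member was called on TPM, and without replicate 1 there were 4. At 12 against 3 months no member was called in WT mice on TPM (0.118% of all genes, 5 at an unadjusted p under 0.05) or on scaled TPM (0.0617%, 8). In APP mice the valine tRNA mt-Tv was 52.2, 50.1 and 51.8 TPM at 3, 151, 176 and 89.3 at 6 and 54.7, 75.5 and 56.1 at 12 months. The 6-month libraries were above the others, and at 6 against 3 months it was the 1 member called on TPM, at 1.36 (SE 0.22, adjusted p = 0.00305), beside 7.12% of all genes, 6.77% as higher. On scaled TPM none was called beside 2.37% of all genes, with 2 at an unadjusted p under 0.05. At 12 against 3 months none was called on TPM (1.6%, 4) or on scaled TPM (3.28%, 4). The contrasts within a genotype share their 3-month libraries, and WT at 3 months has 2.

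The libraries low in mt-Tg and mt-Tr also differed in the copy of mt-Nd3 on chromosome 1, Gm28438, which carries the base that differs next to mt-Tg. Gm28438 over mt-Nd3 was 0.977, 1.02 and 0.978 in WT mice at 6 months, and 1.03, 0.977 and 0.848 in WT mice at 12 months. It was 0.855 and 0.899 in WT mice at 3 months, and 0.802 to 0.892 in the 9 APP mice. The 5 low libraries were thus the 5 highest in this ratio, and WT replicate 3 of 12 months was with the APP mice. In HT-22 cells the ratio was 0.927 to 1.21, mt-Tg 26.8 to 101 TPM and mt-Tr 21.1 to 96.7 TPM. Ddx3y was 20.5 TPM in WT replicate 3 of 12 months and Xist 0.333 TPM. The scaling factor of that library was 1.09, and Gm26917, a noncoding RNA, was 9477 TPM there, against 3127 to 5439 in the 5 libraries and 6889.9 to 11199 in the rest. The part of these differences in the tRNA levels was not tested.

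**Figure D3:**
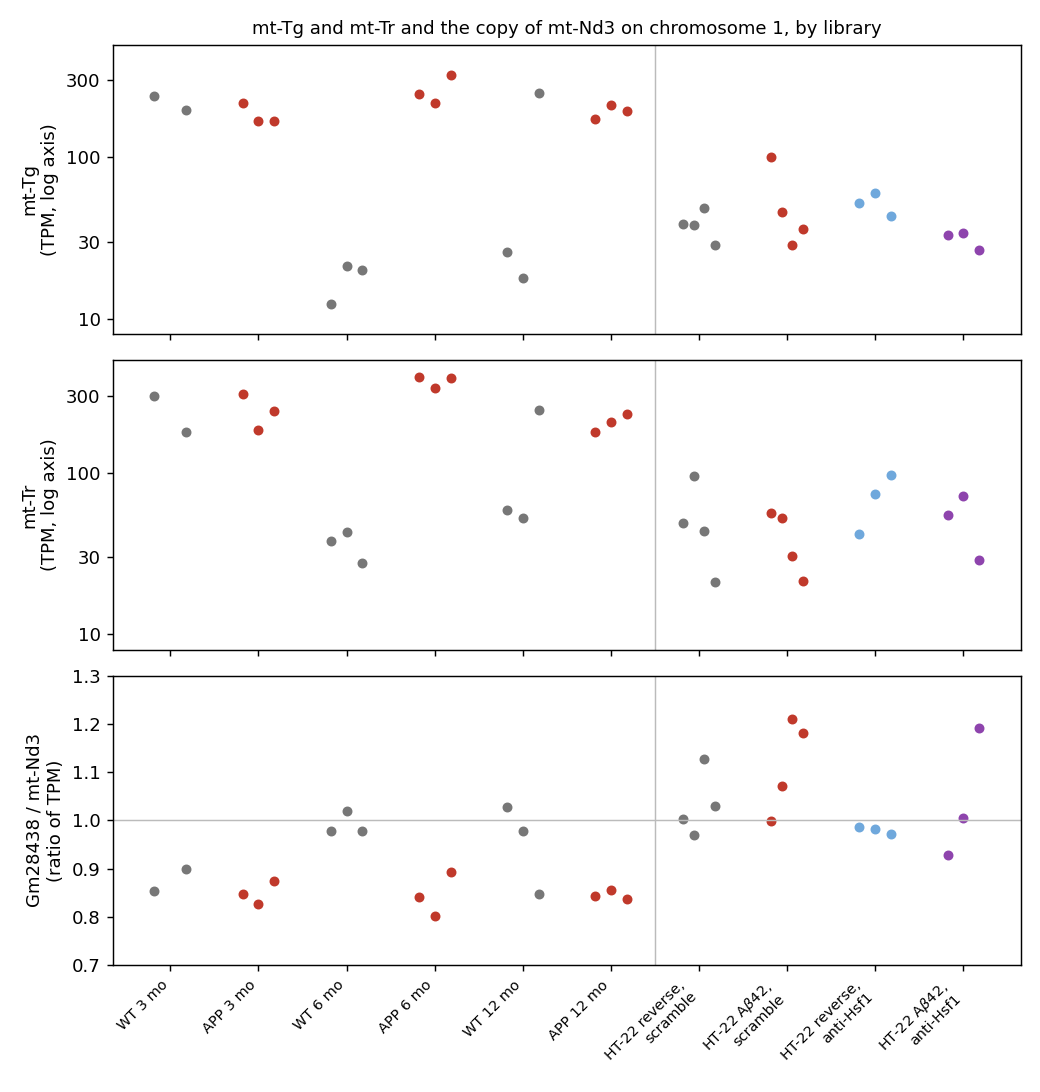
mt-Tg and mt-Tr (TPM, log axes) and the ratio of Gm28438 to mt-Nd3 in each library of the 10 groups, each point a library. The 3 WT libraries of 6 months and 2 of the 3 of 12 months are low in both tRNAs and have ratios of 0.977 to 1.03, while the other mouse libraries have ratios of 0.802 to 0.899.

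The other copies stood in different ratios to their mitochondrial genes. In hippocampus Gm28661 was 0.851 to 0.901 of mt-Co2 and Gm28437 0.900 to 0.944 of mt-Co3. Gm10222 was 0.876 to 0.930 of mt-Nd4l, Gm28439 0.636 to 0.738 of mt-Nd4 and Gm29216 0.372 to 0.497 of mt-Co1. Together the 7 copies took 1.82 to 3.95% of TPM in hippocampus and 0.960 to 3.39% in HT-22 cells. Adding each copy to its gene changed the number of members called in 1 of the 26 tests. Each of the 7 copies was paired with an mRNA, and none was added to a tRNA. The values of mt-Tg and mt-Tr were therefore left as they were, so this alternative cannot show how shared reads affect them.

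The ATP synthase subunit mt-Atp6 fell into separate levels. It was 1141 TPM in APP replicate 1 of 6 months, 1169 in APP replicate 3 of 12 months, 1422 and 1348 in WT replicates 2 and 3 of 6 months, and 2539 in WT replicate 2 of 3 months. In the other 12 hippocampal libraries it was 4092 to 7302 TPM. Its copy Gm10925 was 3909.6 to 8676 TPM throughout, so that mt-Atp6 over Gm10925 was 0.254 to 0.300 in those 5 libraries and 1.01 to 1.08 in the 12. The same split stood in HT-22 cells, at 0.273, 0.305 and 0.301 in replicates 3 and 4 of Aβ42 with scramble LNA and replicate 4 of the reverse peptide with scramble LNA, and 1.05 to 1.12 elsewhere. mt-Atp6 shares 43 bases with mt-Atp8 and 1 with mt-Co3. The serine tRNA mt-Ts2, which shares 1 base with mt-Tl2, was 218, 126, 396 and 201 TPM in APP replicate 1 of 12 months, WT replicates 1 and 3 of 6 months and WT replicate 2 of 12 months, and 0.763 to 1.96 in the other 13. In HT-22 cells it was 576 and 544 in replicates 3 and 4 of Aβ42 with scramble LNA and 1.35 to 5.30 in the other 12. Both patterns split the replicates of WT mice at 6 months and of Aβ42 with scramble LNA. How reads in shared bases were assigned was not stated in the labels or headers.

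The light-strand tRNAs mt-Ta, mt-Tn, mt-Tc and mt-Ty, which carry alanine, asparagine, cysteine and tyrosine and lie side by side between mt-Tw and mt-Co1 (MT:5018-5326), varied together across hippocampal libraries. The 4 highest libraries were the same for each of them, namely WT replicate 2 of 3 months, WT replicate 3 of 6 months, APP replicate 1 of 6 months and WT replicate 1 of 12 months. In these mt-Tn was 1682 to 2289.9 TPM, against 661 to 1198 in the other 13. The ratio of mt-Tn to mt-Tc ran from 1.01 to 1.33. mt-Te, a light-strand tRNA of another site, was 747 to 1950.2 TPM and had APP replicate 2 of 12 months as its highest library. The high libraries came from 4 groups, and none of the 4 tRNAs was called in a genotype contrast on either scale. They took 48.5 to 82.9% of light-strand tRNA TPM in hippocampus and 44.98 to 89.1% in HT-22 cells.

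**Figure D4:**
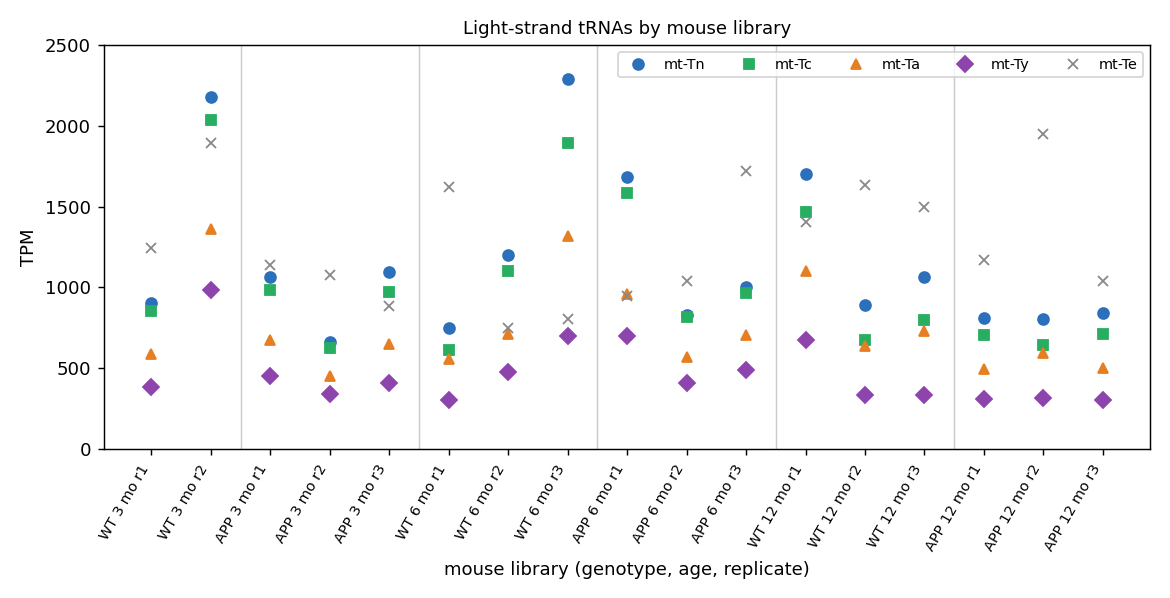
TPM of 5 light-strand tRNAs in each of the 17 hippocampal libraries, ordered by age and genotype. mt-Tn, mt-Tc, mt-Ta and mt-Ty are highest in the same 4 libraries, and mt-Te is not.

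In HT-22 cells with scramble LNA, Aβ42 gave no member that passed the test against the reverse peptide. Several mRNAs spread widely between replicates. mt-Nd6 was 2022, 3943, 1208 and 233 TPM with the reverse peptide and 719.9, 1088, 151 and 151 with Aβ42. mt-Atp8, an ATP synthase subunit, was 3599.8, 7499.8, 2478 and 351 TPM with the reverse peptide and 1271, 2164, 244 and 326 with Aβ42. mt-Nd2, of complex I, was 3507, 6511, 2585 and 1093 TPM with the reverse peptide and 1939, 2351, 643 and 742 with Aβ42. Reverse replicate 4 and Aβ42 replicates 3 and 4 were the low libraries for each of the 3 mRNAs. mt-Co1 was 8350.2, 12418, 8627 and 9440.3 TPM with the reverse peptide and 9928, 8320.2, 8823 and 9167 with Aβ42, and was not low in those 3 libraries. mt-Nd6 was thereby 1.65 to 2.47% of mt-Co1 in the 3 and 7.25 to 36.9% in the other 11. The immediate-early gene Egr1 was 261 to 336 TPM in the same 3 libraries and 18.5 to 44.6 in the others, and Junb was 266 to 286 and 10.8 to 25.9. The part of this difference in the mitochondrial levels was not tested.

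The light-strand tRNA mt-Te, the neighbour of mt-Nd6, was low in the same 3 libraries, at 1557, 2936, 921 and 251 TPM with the reverse peptide and 566, 883, 138 and 170.0 with Aβ42 under scramble LNA. The rRNA mt-Rnr1 was 50496, 106659, 42374 and 34149 TPM with the reverse peptide and 45651, 44233, 19984 and 26585 with Aβ42. mt-Rnr2 was 75175, 93087, 73651 and 69357 TPM with the reverse peptide and 71159, 74501, 47159 and 58089 with Aβ42. The peptides overlapped for both. With limma 0 of the 37 genes were called on TPM (0% of all genes) or on scaled TPM (0%), and 6 and 14 had an unadjusted p under 0.05. The median change over the 37 was -0.39 on TPM, beside 0.15 over all genes, and -0.56 on scaled TPM. Leaving the 3 libraries aside, an alternative chosen after seeing the data, also gave 0 called on each scale.

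**Figure D5:**
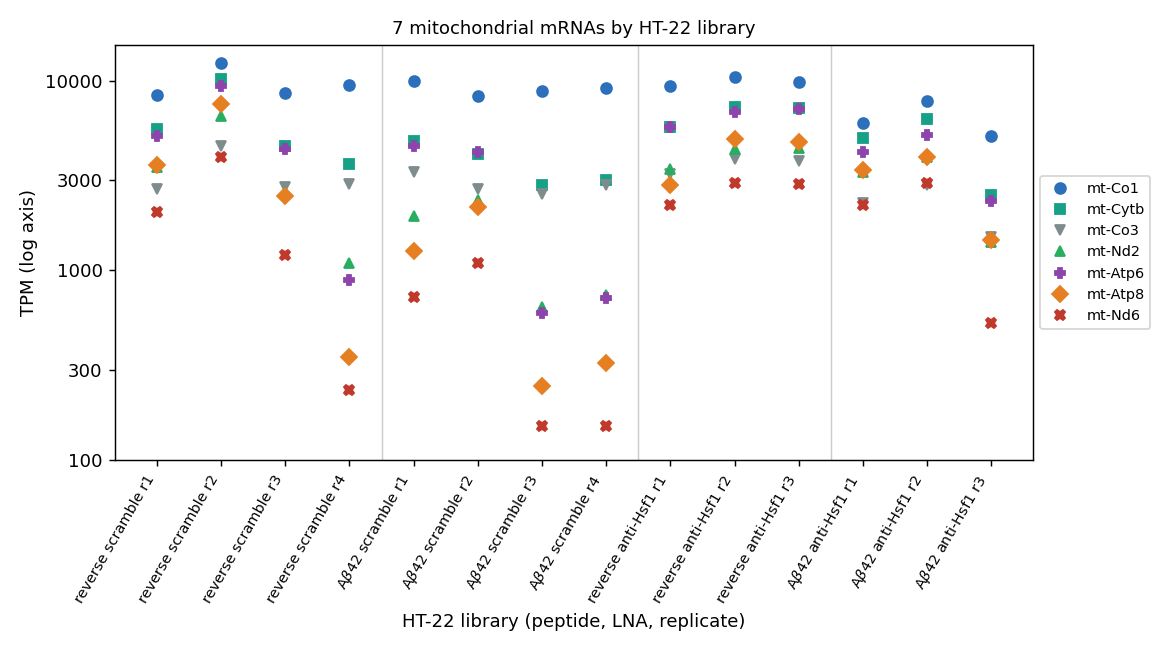
TPM (log axis) of 7 mitochondrial mRNAs in each of the 14 HT-22 libraries, by peptide, LNA and replicate. mt-Nd6, mt-Atp8, mt-Atp6 and mt-Nd2 are lowest in reverse replicate 4 and Aβ42 replicates 3 and 4 with scramble LNA, where mt-Co1 is not.

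With anti-Hsf1 LNA, mt-Co1 was 9329, 10514 and 9790.1 TPM with the reverse peptide and 6006, 7799 and 5117 with Aβ42. mt-Co3, another subunit of cytochrome c oxidase, was 3222, 3860.5 and 3773 TPM with the reverse peptide and 2266, 2812 and 1492 with Aβ42. The groups did not overlap for either. The leucine tRNA mt-Tl2 was 675, 807 and 879 TPM with the reverse peptide and 463, 568 and 463 with Aβ42. The lysine tRNA mt-Tk was 168, 225 and 189 TPM with the reverse peptide and 86.04, 151 and 101 with Aβ42, again with no overlap. These 4 were called as lower with Aβ42 on TPM, mt-Co1 at -0.67 (SE 0.20, adjusted p = 0.0338), mt-Co3 at -0.77 (SE 0.25, adjusted p = 0.0399), mt-Tl2 at -0.66 (SE 0.17, adjusted p = 0.0215) and mt-Tk at -0.81 (SE 0.26, adjusted p = 0.0393). Among all genes 24.3% were called, 24.2% as lower, and the median change was -0.52 against -0.61 over the 37, so a share of 4 in 37 lies below that background. Gm23935 took 27.8, 15.5 and 44.3% of TPM in the Aβ42 libraries and 11.5, 11.1 and 10.03% in the reverse ones. On scaled TPM none of the 37 was called beside 0% of all genes, the median over the 37 was -0.02, and 0 had an unadjusted p under 0.05. No member was called on TPM without Aβ42 replicate 1 or 3, or without any 1 of the 3 reverse libraries.

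The other values of these libraries were as follows. mt-Rnr1 was 54438, 72974 and 86942 TPM with the reverse peptide and 92006, 92599.9 and 48515 with Aβ42 under anti-Hsf1 LNA. mt-Rnr2 was 74173, 86956 and 88503 and 74195, 80182 and 59426, and both rRNAs overlapped between peptides. Of the tRNAs called between genotypes on both scales, mt-Tg was 38.8, 38, 48.5 and 28.8 TPM with the reverse peptide and 101, 46.1, 28.5 and 36.1 with Aβ42 under scramble LNA. Under anti-Hsf1 LNA mt-Tg was 51.8, 60.3 and 43.3 with the reverse peptide and 33.1, 33.8 and 26.8 with Aβ42. mt-Tr was 48.8, 96.2, 43.5 and 21.1 and 56.6, 52.3, 30.4 and 21.4 under scramble LNA, and 41.6, 73.5 and 96.7 and 54.9, 71.4 and 28.8 under anti-Hsf1 LNA, in the same order of peptides. The peptides overlapped for both, except mt-Tg under anti-Hsf1 LNA, where each Aβ42 library was lower but the tRNA was not called on TPM, at -0.71 (SE 0.34, adjusted p = 0.121).

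The anti-Hsf1 LNA was compared with scramble within each peptide. With the reverse peptide 0 of 37 were called with limma on TPM (0% of all genes) or scaled TPM (0%), and 0 and 0 had an unadjusted p under 0.05. With Aβ42, mt-Rnr1 was 45651, 44233, 19984 and 26585 TPM with scramble and 92006, 92599.9 and 48515 with anti-Hsf1 LNA, with no overlap. It was called as higher at 1.21 (SE 0.40, adjusted p = 0.0223), where 0.15% of all genes were called as higher. It was called on TPM only, and on scaled TPM it was 1.93 (SE 0.42, adjusted p = 0.248). mt-Co1, at -0.54 (SE 0.19, adjusted p = 0.0293), and mt-Ts2, at -4.12 (SE 1.47, adjusted p = 0.0331), were called as lower, beside 50.5% of all genes, and in all 50.7% were called. With Aβ42, mt-Ts2 was 5.30, 3.66, 576 and 544 TPM with scramble and 1.90, 2.36 and 2.24 with anti-Hsf1 LNA. The size of its change thus rests on scramble replicates 3 and 4, which are also high in Egr1. On scaled TPM mt-Co1 had the opposite sign, 0.18 (SE 0.18, adjusted p = 0.702). On that scale none of the 37 was called beside 0.0231% of all genes. There 36 of 37 changes were above 0, the median was 0.99, and 27 had an unadjusted p under 0.05. The share of all genes at that unadjusted p is not given. The scaling factors with Aβ42 were 0.642, 0.859 and 0.662 with anti-Hsf1 LNA and 1.13 to 1.24 with scramble, and their part in these changes was not tested. An alternative chosen after seeing the data left aside the 3 libraries high in Egr1. It gave 8 members called on TPM, all tRNAs and all lower with anti-Hsf1 LNA (mt-Tq, mt-Ta, mt-Tn, mt-Tc, mt-Tk, mt-Tg, mt-Ts2 and mt-Tl2), and 0 on scaled TPM. The share of all genes called in that fit is not given, and with all libraries 50.5% were called as lower on TPM. The count of 8 is thus not read as a result about tRNAs. mt-Rnr1 and mt-Co1 were then not called. On TPM no member was called without Aβ42 replicate 1 with anti-Hsf1 LNA.

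The response to Aβ42 differed between the LNAs for 1 of the 37 members on TPM, mt-Tl2, at -0.69 (SE 0.23, adjusted p = 0.0412), beside 25.3% of all genes, 25.3% as lower. On scaled TPM the mt-Tl2 difference had the opposite sign, 0.06 (SE 0.21, adjusted p = 1.00), and none of the 37 was called beside 0% of all genes, with 2 at an unadjusted p under 0.05. mt-Tl2 was 619, 585, 667 and 631 TPM with the reverse peptide and 781, 700.2, 574 and 531 with Aβ42 under scramble LNA. No member was called without any 1 of 8 of the 14 libraries. The contrasts that share a group, such as Aβ42 with anti-Hsf1 LNA in 2 of them, are not independent.

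The nuclear genes that transcribe, process and translate mitochondrial RNA were counted in lists beside the members, the lists having been drawn up with earlier results of these data known. At 6 months 6 of 9 transcription factors, 15 of 20 tRNA end processing and modification enzymes, 13 of 16 mRNA stability and decay factors, 11 of 18 rRNA modification and ribosome assembly factors, 12 of 15 mitochondrial DNA replication factors, 18 of 22 mitochondrial aminoacyl-tRNA synthetases and 7 of 8 regulators of biogenesis were higher in APP on TPM, and none lower, beside 57.6% of all genes. Of the 78 mitoribosomal proteins 36 were higher. On scaled TPM the calls in these lists came to 1 higher regulator of biogenesis, 1 lower tRNA enzyme and 5 lower mitoribosomal proteins, beside 1.66% of all genes. The median change of the mitoribosomal proteins was 0.43 on TPM and -0.23 on scaled TPM, against 0.60 and 0.00 over all genes. Gabpb1, a subunit of a transcription factor of nuclear genes for mitochondrial proteins, was called on both scales, at 1.20 (SE 0.18, adjusted p = 0.000408) and 0.59 (SE 0.14, adjusted p = 0.0485). It was the 1 gene of the lists called in the same direction on both scales in any of the 12 contrasts that have a direction. At 3 and 12 months none of the 8 lists had a called gene in the genotype contrast on either scale. In HT-22 cells none had one for Aβ42 against reverse with scramble LNA on either scale. With anti-Hsf1 LNA the genes lower with Aβ42 on TPM were 5 of 9 transcription factors, 5 of 20 tRNA enzymes, 8 of 16 mRNA stability factors, 3 of 17 rRNA and assembly factors, 5 of 15 DNA replication factors, 3 of 22 synthetases, 1 of 6 regulators of biogenesis and 18 of 78 mitoribosomal proteins, beside 24.2% of all genes. For anti-Hsf1 against scramble LNA with Aβ42 they were 5 of 9 transcription factors, 13 of 20 tRNA enzymes, 15 of 16 mRNA stability factors, 11 of 17 rRNA and assembly factors, 11 of 15 DNA replication factors, 17 of 22 synthetases, 4 of 6 regulators of biogenesis and 50 of 78 mitoribosomal proteins, beside 50.5% of all genes. The effect of Aβ42 was more negative with anti-Hsf1 than with scramble LNA for 2 of 9 transcription factors, 4 of 20 tRNA enzymes, 8 of 16 mRNA stability factors, 2 of 17 rRNA and assembly factors, 7 of 15 DNA replication factors, 3 of 22 synthetases, 1 of 6 regulators of biogenesis and 15 of 78 mitoribosomal proteins, beside 25.3% of all genes. No gene of the lists was called in these 3 contrasts on scaled TPM, nor as higher on TPM. The median change of the mRNA stability factors in them was -0.55, -0.88 and -0.88 on TPM, beside -0.52, -0.62 and -0.68 over all genes.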

How the data were processed

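Long-RNA libraries of hippocampus from 17 mice and 14 of HT-22 cells were analysed, and 31 short-RNA libraries of the series were not used. The authors deposited, for each library, a StringTie gene table with coverage, FPKM and TPM per gene, per the file headers. The submitters' processing notes name FastQC, cutadapt 1.18, BWA 0.7.17, HISAT2 2.1.0, bedtools 2.26.0 and StringTie 1.3.4d and the builds mm10 and GRCm38. No role, strand setting or rule for reads with several matches is stated. Per the labels' protocols, rRNA was depleted and libraries were made with an NEBNext kit.

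TPM as deposited was summed per gene identifier. Coverage divided by FPKM, both as deposited, gave relative depth only. Read counts were not recovered, so no interval covers counting error. Genes averaging 1 TPM or more over the libraries of a fit (17840 in mice, 17291 in HT-22) were tested with limma 3.58.1 in R 4.3.3, with trended, robust variances, on log2(TPM + 1) and on log2(scaled TPM + 1), so that fold changes of low genes are understated. There was 1 fit of 6 mouse groups and 1 of 4 HT-22 groups, and p-values were Benjamini-Hochberg adjusted over all genes tested. A gene is called at an adjusted p under 0.05. Counts of members at an unadjusted p under 0.05 have no share of all genes beside them. The script was tested on simulated data. Equal replicate numbers were checked and not taken as pairs.

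All 37 members are accounted for. Values per library are printed for the rRNAs, the tRNAs called on both scales and the mRNAs the results turn on. The 3 highest and 3 lowest tRNAs of each system by mean are named, and of each nuclear list at most 3 genes called on both scales. Other members named were chosen after their values were seen. The members and lists were chosen with earlier results of these data known. Sequences and gene positions come from RefSeq on GRCm38. Pseudocounts, filters, scalings, the libraries in the fit, a replicate block and leaving out each library were varied.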

Additional observations from a re-analysis of the deposited data

Results flagged for a closer look

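The cytochrome c oxidase mRNA mt-Co3 was 4514 TPM in replicate 2 of the reverse peptide with scramble LNA, against 2699, 2743 and 2854 in the other 3 libraries of the group. Its gap to the nearest library was above Dixon's 95% critical value for 4 libraries. It was the 1 such case among 80 series of 4 libraries looked at, where chance gives about 5 percent.

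The genotype difference varied over the 3 ages on TPM for 5 of the 37 genes, all tRNAs, beside 33.1% of all genes. A share of 5 in 37 lies below that background, and sex and age cannot be told apart between WT ages. The shift of the genotype difference from 3 to 6 months (log2, APP minus WT) was 4.07 for mt-Tg (adjusted p = 0.0320, limma), 3.29 for mt-Tr (adjusted p = 0.00733), 1.43 for mt-Tv (adjusted p = 0.00482), 1.19 for mt-Th (adjusted p = 0.0250) and 1.15 for mt-Tq (adjusted p = 0.0399). In HT-22 cells the Aβ42 effect differed between LNAs for mt-Tl2, by -0.69 (adjusted p = 0.0412), beside 25.3% of all genes. None of these was called on scaled TPM.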

How the results depend on the processing

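The counts below are of the 37 mitochondrial genes called. The share of all genes called under each alternative is not given. On TPM, scaling by the median of ratios gave 3 at 6 months between genotypes (8 as reported), 0 for genotype by age (5), 0 for WT 6 against 3 months (2), 0 for APP 6 against 3 months (1), 0 for Aβ42 against reverse with anti-Hsf1 LNA (4), 0 for anti-Hsf1 against scramble with Aβ42 (3) and 0 for the difference of peptide effects between LNAs (1). The same comparisons on scaled TPM read in reverse, with TPM as deposited giving 8, 5, 2, 1, 4, 3 and 1. Quantile normalisation gave 3 at 6 months, 1 at 12 months, and 0 for genotype by age, WT 6 against 3 months, and the 3 HT-22 contrasts with calls. With no filter there were 3 for genotype by age, 2 for Aβ42 against reverse with anti-Hsf1 LNA and 0 for peptide by LNA. A filter at a mean TPM of 5 gave 4 for WT 6 against 3 months on TPM, and 5 at 6 months, 1 for WT and 1 for APP mice at 6 against 3 months on scaled TPM. Fits of only the groups compared gave, on TPM, 4 for WT 6 against 3 months, 1 for WT 12 against 3 months, 9 for Aβ42 against reverse with anti-Hsf1 LNA and 1 for anti-Hsf1 against scramble with Aβ42, and on scaled TPM 1 for WT 6 against 3 months. Leaving aside the 3 HT-22 libraries high in Egr1, chosen after seeing the data, gave 8 for anti-Hsf1 against scramble with Aβ42 and 5 for peptide by LNA. On scaled TPM 3 named genes turned direction, mt-Ti at 6 months to -0.072, mt-Co1 in anti-Hsf1 against scramble with Aβ42 to 0.18 and mt-Tl2 in peptide by LNA to 0.065. The causes were not tested.

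With single libraries left out, the counts on TPM ranged from 5 to 10 at 6 months, 0 to 2 at 12 months, 2 to 7 for genotype by age, 0 to 4 for WT 6 against 3 months, 0 to 2 for WT 12 against 3 months, 1 to 2 for APP 6 against 3 months, 0 to 6 for Aβ42 against reverse with anti-Hsf1 LNA, 0 to 5 for anti-Hsf1 against scramble with Aβ42 and 0 to 3 for peptide by LNA. On scaled TPM they ranged from 1 to 4 at 6 months, 0 to 2 at 12 months and for genotype by age, and 0 to 1 for WT 12 against 3 months, APP 6 against 3 months and APP 12 against 3 months. The count at 6 months on TPM was 5 without APP replicate 3. For genotype by age it was 2 without that library, and 3 without APP replicate 3 of 3 months, either WT library of 3 months or WT replicate 2 of 6 months. Without WT replicate 3 of 12 months there were 2 at 12 months on each scale, 2 for genotype by age on scaled TPM, and 2 and 1 for WT 12 against 3 months. For anti-Hsf1 against scramble with Aβ42 there were 0 without anti-Hsf1 replicate 1, 1 without scramble replicate 4, and 5 without scramble replicate 2 or anti-Hsf1 replicate 2.

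Same-numbered replicates were correlated on log2 scaled TPM after each gene's group mean was taken off. The correlation was over 0.1 in 3 of 40 mouse and 3 of 19 HT-22 pairs of libraries. The 3 HT-22 pairs were all between Aβ42 and the reverse peptide with scramble LNA, at 0.230, 0.247 and 0.575 for numbers 1, 2 and 4, while number 3 was at -0.216. Both libraries of number 4 are high in Egr1, and of number 3 only the Aβ42 library is. The part of Egr1 in these correlations was not tested. The labels do not tie the numbers to a shared batch and not every pair was over 0.1, so they were not taken as pairs. In that comparison the block left the count at 0 on both scales. A replicate block gave 7 for Aβ42 against reverse with anti-Hsf1 LNA and 0 for peptide by LNA on TPM, and left the other counts as reported. Adding the nuclear copies to their genes, also chosen after seeing the data, gave 2 in place of 3 for anti-Hsf1 against scramble with Aβ42 on TPM and left the other counts as they were. Copies were added to mRNAs only, so the values of the tRNAs, mt-Tg and mt-Tr included, could not change. Groups of 2 to 4 libraries and values without read counts limit what could be called.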
